A study of Mus musculus with 12 samples.

Results

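The interferon regulatory factors (IRFs) are transcription factors that switch on interferon genes and the genes that interferons induce. The 8 family genes described here (Irf1, Irf2, Irf3, Irf4, Irf5, Irf7, Irf8 and Irf9) were found in the count table by their Ensembl identifiers, through their symbols in GENCODE release M21, as 8 of 43432 genes. Their level was measured by sequencing of mRNA from 12 mouse tumours grown from the pancreatic cancer line CR705. In 6 tumours the cells were labelled AHRKO, that is, knocked out for the aryl hydrocarbon receptor (AHR), a transcription factor that responds to ligands, and in the other 6 they were labelled WT. All 12 samples share the line, the tissue label pancreas and the cell type label pancreatic cancer. The labels name no treatment of these tumours, no knockout clone, no host strain or age and no animal, so the p-values measure the spread between these samples only, which may be partly technical. The series' title concerns immune cells in tumours that lack AHR, and the comparison here asks how the IRF genes differ between the groups.

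Library totals ran from 14772343 to 19944273 counts in AHRKO and from 19293174 to 35881469 in WT. Ahr, the targeted gene, had a lowest, median and highest level of 62.5, 104 and 143 CPM (scaled read counts) in AHRKO libraries and 101, 111 and 125 CPM in WT libraries (edgeR log2 fold change -0.13 ± 0.17, adjusted p = 0.606). The Ahr transcript was thus present in both groups; the altered part of the allele is not described in the labels, so the RNA level is no check of them.

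Members of the family share a DNA-binding domain with a row of conserved tryptophans, and they bind variants of the interferon-stimulated response element (ISRE). IRF3 and IRF7 are phosphorylated after viral nucleic acids or bacterial products are sensed and then induce type I interferon, and IRF5 acts downstream of Toll-like receptors. IRF9 is part of the complex ISGF3, which carries the type I interferon signal to DNA, while IRF1 is induced by interferon gamma and drives antigen presentation genes, with IRF2 able to oppose it at the same sites. IRF4 and IRF8 are restricted mainly to blood cells, where they bind with ETS or BATF partners and shape B cells, plasma cells, macrophages and dendritic cells.

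The promoters of Irf1, Irf8 and Irf2 are shown because they were the members with a match to a STAT or IRF motif in the 250 bases before a RefSeq start (GRCm38.p6). All 8 members had a promoter in the RefSeq table. Both strands were searched for the gamma-activated site TTCNNNGAA, the ISRE core (GAAA, any 2 bases, GAAA), the ETS-IRF composite element (GGAA, any 2 bases, GAAA) and the core of the xenobiotic response element, GCGTG, to which AHR binds with its partner ARNT. The share of all 32851 promoter windows of that length that held a match was 7.02% for the gamma-activated site, 2.98% for the ISRE core, 2.3% for the composite element and 28.2% for GCGTG. Capitals mark the first 3 motifs, read 5′ to 3′ on the plus strand, on which all 3 genes lie.
Irf1, chr11:53769764-53770013: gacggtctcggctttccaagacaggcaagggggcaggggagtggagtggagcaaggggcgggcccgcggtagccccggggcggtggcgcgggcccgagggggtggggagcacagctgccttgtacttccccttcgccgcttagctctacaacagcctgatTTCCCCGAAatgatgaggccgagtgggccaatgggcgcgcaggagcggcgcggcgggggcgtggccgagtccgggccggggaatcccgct
Irf8, chr8:120736108-120736357: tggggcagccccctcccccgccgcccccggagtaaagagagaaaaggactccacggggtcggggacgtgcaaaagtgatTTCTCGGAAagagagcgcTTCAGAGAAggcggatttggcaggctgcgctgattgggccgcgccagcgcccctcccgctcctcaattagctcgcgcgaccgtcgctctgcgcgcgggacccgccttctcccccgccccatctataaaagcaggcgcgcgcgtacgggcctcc
Irf2, chr8:46739495-46739744: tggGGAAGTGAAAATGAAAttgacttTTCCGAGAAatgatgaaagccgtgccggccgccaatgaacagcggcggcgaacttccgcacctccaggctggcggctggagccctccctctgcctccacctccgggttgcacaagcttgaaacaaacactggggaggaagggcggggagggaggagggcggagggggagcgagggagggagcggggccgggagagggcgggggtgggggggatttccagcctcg
The Irf1 window held 1 gamma-activated site, TTCCCCGAA, whose first base lies 90 bases before the start. The Irf8 window held 2, TTCTCGGAA and TTCAGAGAA, 171 and 153 bases before the start. The Irf2 window held 1, TTCCGAGAA, at 224 bases, together with a composite element, GGAAGTGAAA, and an ISRE core, GAAAATGAAA, at 247 and 241 bases, which overlap in their shared GAAA. GCGTG, not capitalised, occurred 1 time in the Irf1 window above, 2 times in the window of a second Irf1 start, 2 times in the Irf3 window and 1 time in the Irf4 window. These are matches of letters and not measured binding, and the remaining windows of the 8 members held none of the 4 motifs.

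Irf transcripts were more abundant in AHRKO tumours: 7 of the 8 members rose, none fell and Irf3 did not pass the test. The estimate of all 8 was above 0, so none was lower at an unadjusted p either. Among all 15449 genes tested 29.5% passed in either direction, 15.9% as higher in AHRKO and 13.6% as lower. The median log2 fold change (AHRKO over WT) of the 8 was 1.83, against 0.023 over all tested genes. For Irf2, Irf4, Irf7 and Irf8 the lowest AHRKO library lay above the highest WT library, which held for 6.03% of tested genes. All 8 members passed the filter on low counts. Levels are given as CPM, a gene's reads scaled to the same library total in all libraries, as the lowest, median and highest of 6 libraries. Adjusted p-values are from edgeR's quasi-likelihood test, adjusted by Benjamini-Hochberg across the whole table of tested genes, at a threshold of 0.05, and errors of log2 fold changes are standard errors.

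**Figure D1:**
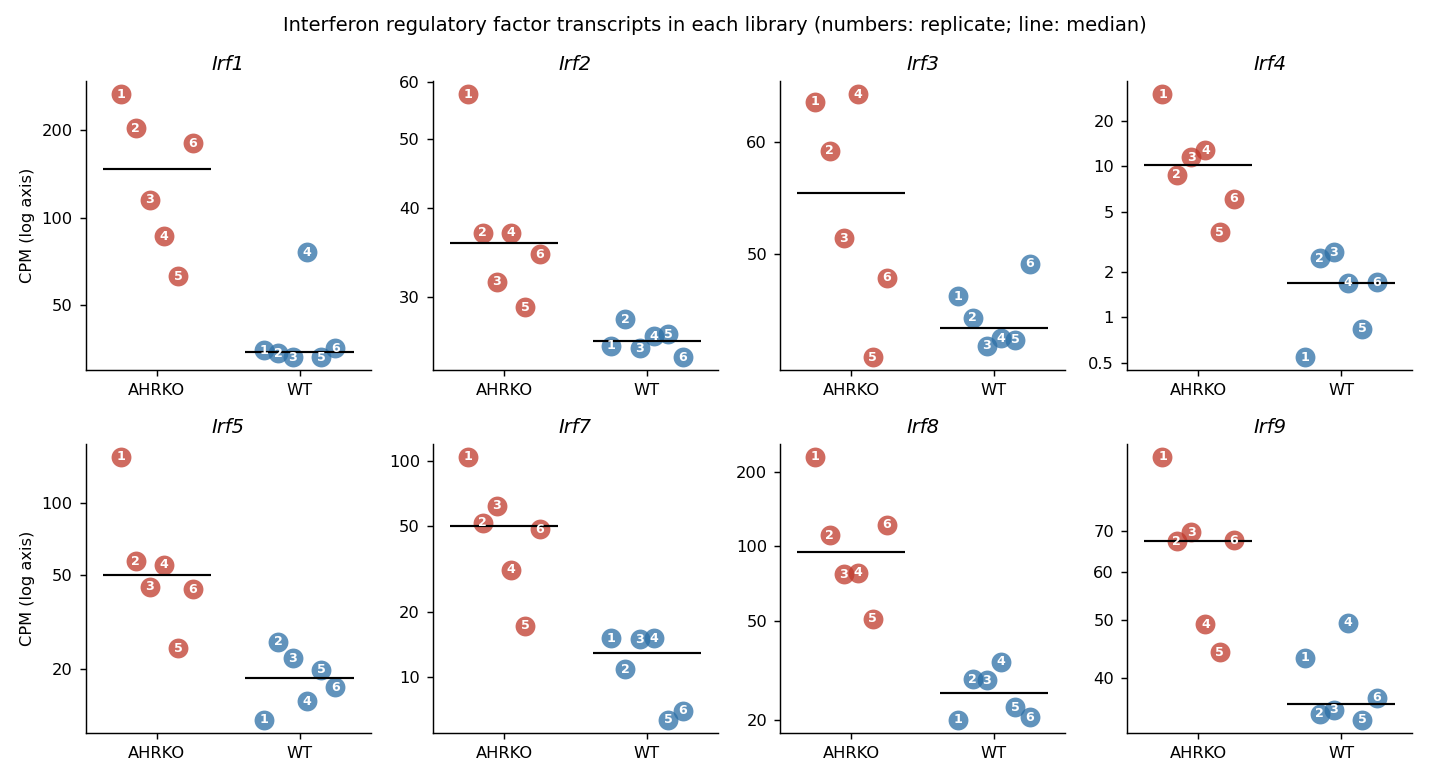
CPM of each of the 8 members (log axis, a separate range in each panel) in the 6 AHRKO and the 6 WT libraries, with the replicate number inside each point and a line at the group's median. AHRKO replicate 5 is the lowest AHRKO library in all 8 panels and AHRKO replicate 1 the highest in 7, and WT replicate 4 stands above the other WT libraries for Irf1, at 75.9 CPM.

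Among the members that interferons themselves induce, Irf1 rose 3.7-fold in AHRKO tumours. Irf1 (ENSMUSG00000018899, mm10 chromosome 11, 53770014 to 53778374, plus strand) had 62.7, 147 and 266 CPM in AHRKO libraries and 33.1, 34.6 and 75.9 CPM in WT libraries. The groups overlapped through 1 library of each, AHRKO replicate 5 at 62.7 and WT replicate 4 at 75.9, while the other 5 WT libraries lay between 33.1 and 35.5. The log2 fold change was 1.89 ± 0.35 (adjusted p = 0.00254), with 5 of 6 AHRKO libraries above all WT. Irf7, the factor that amplifies type I interferon production, rose 4.58-fold. Irf7 (ENSMUSG00000025498, chromosome 7, 141262706 to 141266481, minus strand) had 17.2, 50.1 and 105 CPM in AHRKO libraries and 6.3, 12.8 and 15.1 CPM in WT libraries. All 6 AHRKO libraries lay above all WT libraries, and WT replicates 5 and 6, at 6.3 and 6.95 CPM, were lower than the other 4 WT libraries, at 10.8 CPM or more. Its log2 fold change was 2.19 ± 0.39 (adjusted p = 0.00208). Irf9 (ENSMUSG00000002325, chromosome 14, 55603571 to 55610030, plus strand), the DNA-binding part of ISGF3, had 44.2, 67.4 and 92.7 CPM in AHRKO libraries and 34.2, 36.3 and 49.4 CPM in WT libraries. AHRKO replicates 4 and 5 lay within the WT range, below WT replicate 4, and the other 4 lay above it. The rise of Irf9 was 1.66-fold, a log2 fold change of 0.73 ± 0.17 (adjusted p = 0.00713).

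The members found mainly in blood cells showed rises of 3.42-fold to 7.29-fold. Irf8 (ENSMUSG00000041515, chromosome 8, 120736358 to 120756694, plus strand), needed for monocytes and for cross-presenting dendritic cells, had 51.3, 94.4 and 229 CPM in AHRKO libraries and 20.1, 25.8 and 34.4 CPM in WT libraries. The groups did not overlap, and the log2 fold change of 2.10 ± 0.31 had the smallest p of the family (adjusted p = 0.000846). Over the 826 tested genes of chromosome 8, on which Irf2 also lies, the median log2 fold change was -0.31 and 6.54% were called higher, against 330 genes called lower. Irf4 (ENSMUSG00000021356, chromosome 13, 30749226 to 30766976, plus strand), which plasma cells and activated lymphocytes need, had the largest fold change of the family and the lowest level. It had 3.67, 10.2 and 30.1 CPM in AHRKO libraries, from 57 to 508 reads, and 0.546, 1.7 and 2.7 CPM in WT libraries, from 13 to 86 reads. The groups did not overlap, and the log2 fold change was 2.87 ± 0.52 (adjusted p = 0.00233). Irf5 (ENSMUSG00000029771, chromosome 6, 29526625 to 29541871, plus strand), a factor of macrophages and B cells, had 24.5, 49.7 and 157 CPM in AHRKO libraries and 12.2, 18.2 and 26 CPM in WT libraries. AHRKO replicate 5 lay within the WT range, below WT replicate 2, and the other 5 AHRKO libraries lay above it. The log2 fold change was 1.77 ± 0.38 (adjusted p = 0.00546). The strand setting of the counting is not given in the sources used here, so reads of genes that overlap on opposite strands may be mixed. Irf5 shares 14.1% of its exon bases with Tnpo3 on the other strand, which stood at a 0.852-fold level in AHRKO (adjusted p = 0.0836). Irf1 shares 3.4% with Gm17334, whose level, at 1.86 ± 1.29 CPM in AHRKO and 0.503 ± 0.273 CPM in WT, was far below its own, and Irf3, Irf7 and Irf9 share 2.56%, 1.19% and 2.28% with a neighbour.

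The members that most cells express at a steady level differed least. Irf2 (ENSMUSG00000031627, chromosome 8, 46739732 to 46847458, plus strand) had 29, 35.6 and 57.7 CPM in AHRKO libraries and 24.7, 26 and 27.9 CPM in WT libraries. The WT libraries lay close together, with an SD of 1.10 CPM against 10.3 in AHRKO, and every AHRKO library lay above them. The rise was 1.45-fold, a log2 fold change of 0.53 ± 0.14 (adjusted p = 0.0163). Irf3 (ENSMUSG00000003184, chromosome 7, 44997648 to 45002848, plus strand), the factor that is activated by phosphorylation and needs no new transcription, had 42.3, 55.2 and 64.8 CPM in AHRKO libraries and 43.1, 44.4 and 49.2 CPM in WT libraries. AHRKO replicate 5 lay below all WT libraries, replicate 6 inside their range, and the other 4 above it. The log2 fold change of 0.28 ± 0.11 did not pass the test (adjusted p = 0.0606). It passed with DESeq2's Wald test, at 0.29 (adjusted p = 0.0373). Without AHRKO replicate 5 or 6 it also passed, at 0.35 and 0.32. The median log2 fold change over the 1164 tested genes of chromosome 7, which holds Irf3 and Irf7, was 0.21, with 25.3% called higher.

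Transcripts of leukocytes rose in the same tumours. Of 14 pan-leukocyte markers such as Ptprc and Coro1a, 13 were tested and all 13 rose, and their summed level was 559 to 3370 CPM in AHRKO libraries and 327 to 603 CPM in WT libraries. In 8 of 10 macrophage markers the test was passed upwards (summed 580 to 3940 CPM in AHRKO and 432 to 1010 in WT), and likewise in 9 of 10 markers of conventional dendritic cells (169 to 576 CPM in AHRKO and 65.7 to 114 CPM in WT). B cell markers rose in 4 of 5 tested cases of 10 listed (7.91 to 71.6 CPM in AHRKO and 4.12 to 9.65 CPM in WT), and the other 5 had too few counts for the test. Plasma cell markers rose in 5 of 8 tested cases of 9, while Sdc1, which epithelia also express, fell (-0.57, adjusted p = 0.0168). That list summed to 836 to 1090 CPM in AHRKO and 1040 to 1250 CPM in WT. T cell markers rose in 9 of 10 (129 to 599 CPM in AHRKO and 148 to 327 CPM in WT). NK cell markers rose in 5 of 8 (10.4 to 139 CPM in AHRKO and 18.8 to 31.2 CPM in WT). The ranges of both sums overlapped between the groups. Thy1, the T cell marker not called, made up most of the T cell sum (115 to 415 CPM in AHRKO and 144 to 313 CPM in WT). Klra4, an NK cell marker not called, was the largest part of the NK sum in WT (11.7 to 19.5 CPM, against 2.9 to 25.8 CPM in AHRKO). Markers of plasmacytoid dendritic cells rose in 2 of 5 tested. Neutrophil markers rose in 1 of 6 tested, near the 15.9% of all tested genes called higher. Evi2b, the pan-leukocyte gene left out of the test, had 0 counts in WT, and no difference between the groups is read from it. None of 9 ductal, 8 fibroblast or 6 endothelial markers passed the test, which leaves changes in them unsettled, and the summed ductal level was 697 to 4770 CPM in AHRKO and 3480 to 4940 CPM in WT. In bulk tumour RNA, more cells of a type and more RNA of a gene per cell cannot be told apart.

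When a pan-leukocyte score (log2 CPM averaged over the 13 markers tested) was added to the fit, only Irf8 still passed, with a log2 fold change of 0.91 ± 0.24 (adjusted p = 0.0168). Irf7 stood at 1.12 ± 0.48 (adjusted p = 0.102), Irf4 at 1.04 ± 0.40 (adjusted p = 0.0764) and Irf1 at 1.02 ± 0.48 (adjusted p = 0.136). Irf9 stood at 0.36 ± 0.23 (adjusted p = 0.265), Irf5 at 0.12 ± 0.13 (adjusted p = 0.52), Irf3 at 0.03 ± 0.14 (adjusted p = 0.902) and Irf2 at -0.0044 ± 0.12 (adjusted p = 0.982). The estimates of Irf2, Irf3 and Irf5 thus lay within about 1 standard error of 0, and those of Irf1, Irf4 and Irf7 lay more than 2 above it without passing. The score was above all WT libraries in 5 of 6 AHRKO libraries (4.81 to 7.54 in AHRKO and 3.95 to 4.90 in WT), so genotype and leukocyte content overlapped in few libraries and cannot be told apart well by this fit. Without AHRKO replicate 1, whose score was the highest, the 7 members still passed in the fit without the score, with log2 fold changes of 1.66 for Irf1, 0.37 for Irf2, 2.36 for Irf4, 1.27 for Irf5, 1.87 for Irf7, 1.76 for Irf8 and 0.61 for Irf9.

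**Figure D2:**
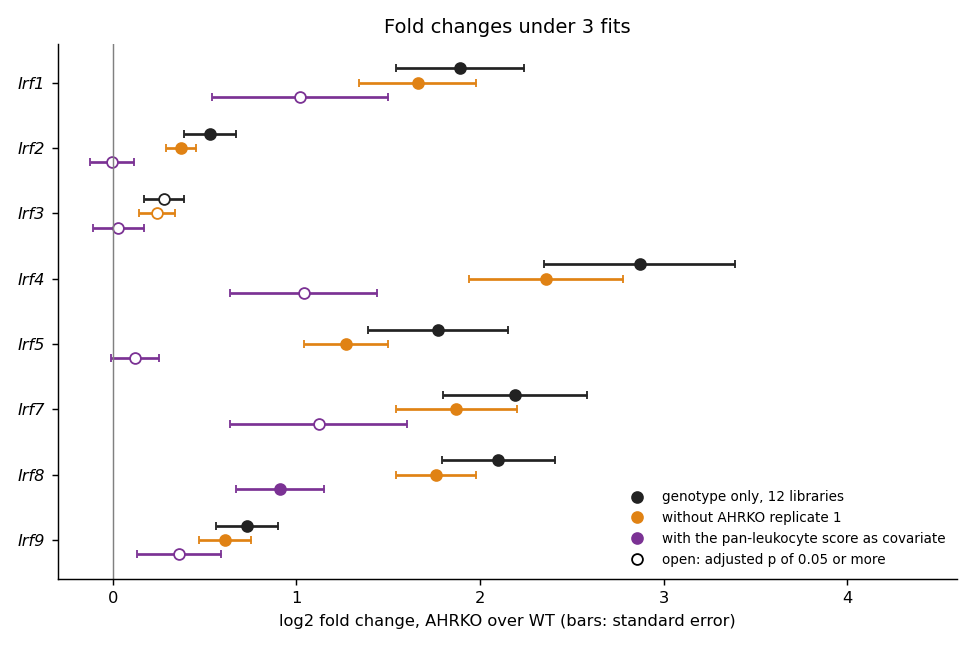
Log2 fold change (AHRKO over WT) and its standard error for the 8 members in the fit with genotype only, in the same fit without AHRKO replicate 1, and in the fit that also holds the pan-leukocyte score; filled points passed at an adjusted p under 0.05. With the covariate only the point of Irf8, at 0.91, is filled, and those of Irf2, Irf3 and Irf5 lie near 0.

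Levels of different members were compared per length, as CPM per kilobase of summed exons (mean ± SD, n = 6 per group). In AHRKO tumours the order was Irf1 (38.3 ± 19.5), Irf5 (21.9 ± 16.3), Irf3 (16 ± 2.65), Irf8 (15.8 ± 8.91), Irf7 (14 ± 8.05), Irf9 (12.1 ± 3.2), Irf2 (5.1 ± 1.39) and Irf4 (2.49 ± 1.92). In WT tumours it was Irf3 (13.1 ± 0.686), Irf1 (10.3 ± 4.3), Irf9 (7.26 ± 1.11), Irf5 (6.4 ± 1.75), Irf8 (3.69 ± 0.818), Irf2 (3.53 ± 0.149), Irf7 (3.05 ± 1.1) and Irf4 (0.338 ± 0.174). Most neighbours in these orders had overlapping ranges over the libraries. The exceptions were Irf9 above Irf2 in AHRKO and Irf7 above Irf4 in WT. Irf3 thus led in WT and Irf1 in AHRKO, and the summed level of the 8 was 61.2 to 231 in AHRKO libraries and 42.8 to 58.8 in WT libraries. Irf3 made up 14.3% ± 4.77 of that sum in AHRKO and 27.9% ± 3.71 in WT, and Irf8 made up 12.2% ± 1.5 in AHRKO and 7.67% ± 1.03 in WT. The ratio of Irf1 to its possible antagonist Irf2, per length, was 4.03 to 10.2 in AHRKO libraries and 2.27 to 5.36 in WT libraries, where WT replicate 4 gave the 5.36 and the other 5 at most 2.67. The ratio of Irf7 to Irf3 was 0.371 to 1.5 in AHRKO libraries and 0.129 to 0.315 in WT libraries, with no overlap. These orders and ratios are descriptions without a test, and with the longest transcript as length Irf8 took the second place in AHRKO.

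**Figure D3:**
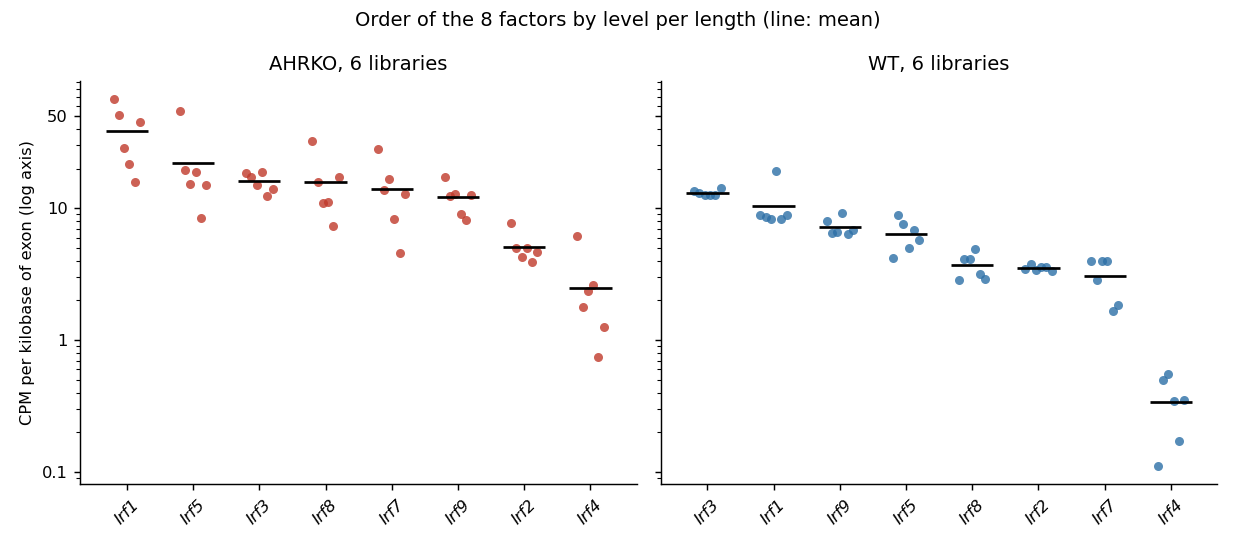
CPM per kilobase of exon (log axis) of the 8 members in the 6 AHRKO and the 6 WT libraries, ordered by the group's mean, which the line marks. Irf1 leads in AHRKO at 38.3 and Irf3 in WT at 13.1, and Irf4 is last in both.

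The members varied together from library to library to unequal degrees. Within AHRKO, replicate 5 was the lowest library for all 8 members and had the lowest pan-leukocyte score, 4.81, while replicate 1 was the highest for 7 members and had the highest score, 7.54. AHRKO replicate 1 also had the lowest ductal score of the 12 libraries, 4.54, and the highest fibroblast and endothelial scores, 10.20 and 7.44, against at most 9.59 and 5.91 in WT; AHRKO replicate 5 had the lowest fibroblast and endothelial scores of AHRKO, 7.79 and 5.02. The part of these cell types in the members' order was not tested. For Irf7, WT replicates 1 and 4 were level at the top of WT, at 15.1 CPM. WT replicate 4 was the highest WT library for Irf1, Irf8 and Irf9. Its pan-leukocyte score of 4.30 lay below those of WT replicates 2 and 3, at 4.90 and 4.89. Its T cell and NK cell scores, 1.47 and 0.84, were the highest of WT, against at most 1.30 and 0.79 in the other WT libraries. It had the highest WT score of the interferon gamma target list, 5.31 against at most 3.30 in the other WT libraries, and of the ISGF3 target list, 3.47. For Irf4 and Irf5 the highest WT libraries were instead replicates 3 and 2. Correlations of log2 CPM over the 12 libraries, after each group's mean was removed, were above 0 for all pairs and formed no clean division. The largest were 0.91 for Irf2 with Irf5, 0.90 for Irf1 with Irf9 and 0.88 for Irf7 with Irf9, and the smallest were 0.37 for Irf3 with Irf1 and with Irf9. Irf8 had high values both with Irf1 (0.87) and with Irf5 (0.82), while Irf4 with Irf9 and Irf5 with Irf9 were at 0.41 and 0.49. Without AHRKO replicate 1 these last 2 pairs were at 0.07 and 0.01, Irf1 with Irf9 at 0.86 and Irf2 with Irf5 at 0.76. All these points share 12 libraries, and the values describe them without a test.

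Ifng, the gene of interferon gamma, reached the level asked by the filter on low counts in too few libraries and was not tested. Its counts in AHRKO replicates 1 to 6 were 78, 27, 19, 7, 1 and 18, and WT replicates 1 to 6 had 0, 1, 2, 14, 0 and 0. The single WT library with more than 2 reads, replicate 4, was the one in which Irf1 was high. AHRKO replicate 5, lowest for the members, had 1 read. Ifnb1 had 0 to 4 reads a library in AHRKO and 0 to 2 in WT, and of the interferon alpha genes listed only Ifna4 had a read, 1 in WT. At this depth a difference in such low counts was not tested.

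**Figure D4:**
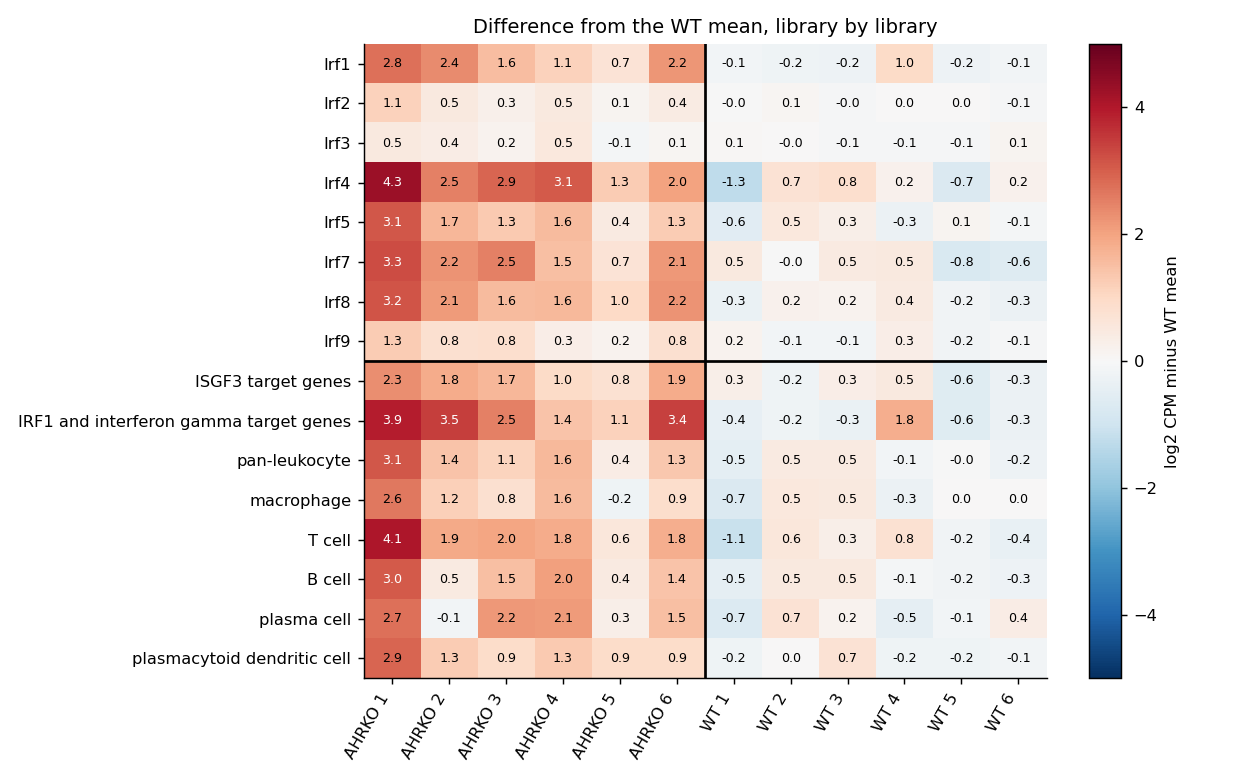
Log2 CPM minus the WT mean for the 8 members (upper block) and for the mean of gene lists (lower block) in each library, with AHRKO libraries left of WT libraries. AHRKO replicate 1 is the reddest column and AHRKO replicate 5 the palest of its group; among WT libraries only replicate 4 is raised for Irf1 (0.96) and for the interferon gamma target list (1.81).

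The genes most like each member over the 12 libraries, again with group means removed, differed by member. For Irf7 they were the ubiquitin-like modifier gene Isg15 (r = 0.99), Rtp4 (0.96) and Rnf114 (0.94), and for Irf9 the tetherin gene Bst2 (0.95), Parp10 (0.95) and Xaf1 (0.93). For Irf1 they were the guanylate-binding protein gene Gbp2b (0.98), Gvin1 (0.97) and Parp14 (0.97), and for Irf8 Sp100 (0.97), Samhd1 (0.97) and Sp110 (0.97). Each of these 12 genes was called higher in AHRKO, with log2 fold changes of 0.44 for Rnf114 to 3.39 for Gbp2b. For Irf5 the most similar were Renbp, Ndn and the blood-cell kindlin gene Fermt3, all at 0.99, of which only Fermt3 was called (1.61, adjusted p = 0.0075). For Irf4 they were Tcfl5 (0.97), the eotaxin gene Ccl11 (0.96) and Fxyd2 (0.96), of which only Fxyd2 was called (2.14, adjusted p = 0.0366). For Irf2, Man2b1 (0.98), Cdkn1c (0.97) and Cul9 (0.97) led and none was called. Among those most like Irf3 were Mrps12 (0.95) and Cd2bp2 (0.94), which lie on chromosome 7, as does Irf3, and of which Cd2bp2 was called higher (0.30, adjusted p = 0.041). Without AHRKO replicate 1 the correlation of Irf2 with Cul9 was 0.81 and with Cdkn1c 0.84, and the others stayed at 0.93 or more.

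Around the family, the genes that IRFs and STATs induce rose, while most of the kinases and adaptors that activate them did not pass the test. Among 26 genes induced through ISGF3, 23 rose and none fell, with a median log2 fold change of 1.62. Of all tested genes, 15.9% were called higher and 13.6% lower. Mx1, an antiviral GTPase, had 15.1 ± 4.9 CPM in AHRKO and 2.32 ± 0.724 CPM in WT (mean ± SD, n = 6 each; adjusted p = 0.000102). Oas3, a sensor of double-stranded RNA, was at a log2 fold change of 2.79, Cmpk2 at 2.08 and the ADP-ribosyltransferase gene Parp9 2.82-fold higher. Among 25 tested genes induced by interferon gamma, many through IRF1, 23 rose and none fell, with a median of 2.55. The groups overlapped for most of them. The lowest AHRKO library lay above the highest WT library in 5 of the 25, against 6.03% of all tested genes. WT replicate 4 was the highest WT library in 24 of the 25. Its mean log2 CPM over the list, 5.31, lay above those of AHRKO replicates 4 and 5, at 4.91 and 4.65. The 4 genes named next are among the 5 without overlap. Psmb8, an immunoproteasome subunit, had 48.1 ± 31.5 CPM in AHRKO and 6.21 ± 2.27 CPM in WT (adjusted p = 0.000846), and the peptide-loading genes Tapbp and Tap2 stood at 1.71 and 2.28 and the caspase gene Casp1 at 2.23. Il15 stood at -0.02 (adjusted p = 0.976) and was picked for its small change. A further gene of that list was not analysed here. With the pan-leukocyte score in the fit, 5 genes of the first list and 4 of the second were called higher.

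**Figure D5:**
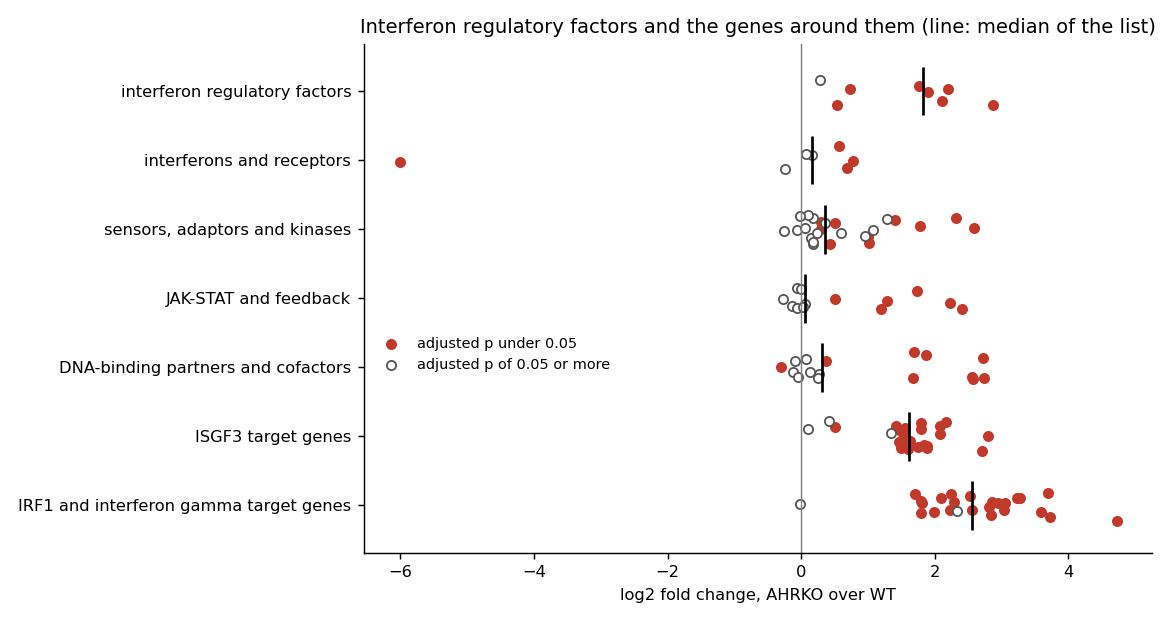
Log2 fold change (AHRKO over WT) of each tested gene for the 8 members and for 6 lists of genes around them; filled points passed at an adjusted p under 0.05 and lines mark each list's median. The 2 target lists lie to the right, with medians of 1.62 and 2.55, the lists of sensors, kinases and partners straddle 0, and the single point far to the left is Ifne.

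Of 13 genes of the JAK-STAT pathway and its feedback, 6 rose and none fell, with a median log2 fold change of 0.06. The share called higher over all tested genes was 15.9%. Those that rose included the feedback inhibitors Socs1 (2.22) and Usp18 (1.73) and the leukocyte phosphatase Ptpn6 (1.29). The receptor kinases Jak1, Jak2 and Tyk2, chosen after their values were seen, stood at 0.06, -0.07 and -0.07, with adjusted p of 0.715 to 0.832. Of 25 sensors, adaptors and kinases upstream of IRF3, IRF5 and IRF7, 10 rose and none fell (median 0.35). The nucleic acid sensors Zbp1 (2.58), Tlr9 (2.31), Dhx58 (1.78) and Ifih1 (1.40) led. The others called higher were Ticam2 (1.01), Ddx58 (1.00), Tlr4 (0.51), Myd88 (0.43), Slc15a4 (0.30) and the kinase gene Chuk (0.29). Tbk1, the kinase of IRF3, stood at 0.10 (adjusted p = 0.628, chosen after its value was seen). Only 6 of the 25 rose when WT replicate 5 was left out, and 1 did with the pan-leukocyte score in the fit, as did 1 of the 13.

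Of 16 factors that bind DNA with the family or act as its cofactors 8 rose and 1 fell, with a median log2 fold change of 0.32. Over all tested genes 15.9% were called higher and 13.6% lower. Batf3, a partner of IRF8 in dendritic cells, stood at 2.55, Spib and Spi1, ETS partners of IRF4 and IRF8, at 2.72 and 1.68, and Ikzf1, the Ikaros gene of lymphocytes, at 1.86. Irf2bp2, a corepressor that binds IRF2, fell to 257 ± 25.4 CPM in AHRKO, against 315 ± 24.5 CPM in WT (log2 fold change -0.30, adjusted p = 0.0235), and the call ended without WT replicate 1 or 5. It lies on chromosome 8, where the median log2 fold change was -0.31 and 330 of 826 tested genes were called lower, and it stood at -0.05 (adjusted p = 0.754) with the pan-leukocyte score in the fit. With the pan-leukocyte score in the fit 3 of the 16 were called higher.

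Of 17 interferon and receptor genes only 7 were tested. Of these 3 rose and 1 fell, where 15.9% of all tested genes were called higher and 13.6% lower. The receptor chains Ifnar2 (0.77), Il10rb (0.68) and Ifngr2 (0.56) rose, each with all 6 AHRKO libraries above all WT. With the pan-leukocyte score in the fit, Ifngr2 was still called (0.63, adjusted p = 0.00523), while Il10rb stood at 0.15 (adjusted p = 0.435) and Ifnar2 at 0.07 (adjusted p = 0.746). The 3 lie in 1 cluster with Ifnar1 on chromosome 16, over whose 475 tested genes the median log2 fold change was 0.33 with 37.9% called higher. The partner chains, chosen after their values were seen, stood at 0.16 for Ifnar1 (adjusted p = 0.29) and 0.07 for Ifngr1 (adjusted p = 0.741). Ifne, which encodes interferon epsilon, an interferon of epithelia, fell: AHRKO libraries had 1 read in all and WT libraries 140, a ratio of 0.00983 (95% interval 0.000247 to 0.0557, exact binomial, counting error only; adjusted p = 5.11e-05).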

How the data were processed

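RNA of 12 tumours (6 AHRKO, 6 WT) was enriched for poly-A RNA and sequenced, per the labels' protocols; growth and treatment texts there describe cultured cells with test compounds, which no sample label names. The authors deposited whole-number read counts for each gene, not normalized. Per the submitters' processing notes, the tools were HISAT2, SAMtools, HTSeq and DESeq2 with the build mm10; the sources used here give no versions, annotation or strand setting. Symbols and coordinates came from GENCODE M21 (42462 of 43432 identifiers matched).

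Genes were kept by filterByExpr (15449), scaled by TMM and tested for AHRKO against WT, two-sided, with edgeR 4.0.16 in R 4.3.3, without covariates. The log2 CPM used a prior count of 2. Data of the same depth and spread were simulated, each gene independently. The changed genes, 50 per fold, were drawn from those with a WT mean above 1 CPM. Changes of 2 (log2) upwards were recovered in 94% and of 1 in 60%, among 15167 genes. Within groups no libraries agreed within sampling noise (lowest chi-squared per degree of freedom 13.6). Replicate numbers did not pair libraries. Alternatives were DESeq2 1.42.0, limma 3.58.1 (voom with quality weights), other scalings and filters, a replicate block, a pan-leukocyte covariate and leaving out each library. No list was tested as a set.

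Named were all members and Ahr, per list the 4 genes with the smallest p past the threshold and up to 2 in the opposite direction, and the 3 genes most correlated with each member. Some genes that this rule names are not reported here. Members and lists were chosen with earlier results of these data known.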

Additional observations from a re-analysis of the deposited data

Results flagged for a closer look

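In 4 of 16 groups (8 members in AHRKO and in WT) 1 library lay far from the other 5, by a gap larger than Dixon's critical value for 6 values; chance gives this in about 1 of 20 groups. In WT it was replicate 4 for Irf1, at 75.9 CPM. In AHRKO it was replicate 1 for Irf2, at 57.7 CPM, for Irf4, at 30.1 CPM, and for Irf5, at 157 CPM. AHRKO replicate 1 had the highest pan-leukocyte score of all libraries, 7.54, and WT replicate 4 held 14 of the 17 Ifng reads of WT; the part of either in these values was not tested.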

How the results depend on the processing

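The direction of 7 members kept under every alternative tried, and Irf2 was the exception. With the pan-leukocyte score in the fit, Irf2 stood at -0.0044, and Irf1 (1.02), Irf4 (1.04), Irf5 (0.12), Irf7 (1.12) and Irf9 (0.36) no longer passed, which left 1 member called higher. Counts called higher in that fit were 1 for sensors, 1 for JAK-STAT genes, 3 for partners, 5 for ISGF3 targets and 4 for interferon gamma targets, and Spi1 stood at -0.02. Of 25 list genes named, 16 lost the call with the score and kept their direction. Spi1 lost the call too, with a change of sign. Of the 498 alternatives of these 25 genes 473 kept the call, 24 lost it with the same sign and 1, that of Spi1, changed sign. Replicate numbers did not pair libraries (correlations of -0.468 to 0.0292, none matching its own number best). The replicate block gave 1114 genes higher and 1240 lower, against 2451 and 2106 without it, 2 sensors and 3 partners higher, and Irf2 at 0.49 (adjusted p = 0.0541), not called. DESeq2's Wald test called Irf3 (0.29). Leaving out 1 library gave 1822 to 2980 genes higher and 1632 to 2778 lower, 7 to 8 members higher, 6 to 13 sensors higher, and Irf3 at 0.23 to 0.35. The longest transcript as length gave, in AHRKO and WT, 71.2 and 19.2 CPM per kilobase for Irf1, 9.51 and 6.58 for Irf2, 27.1 and 22.3 for Irf3, 32.1 and 7.5 for Irf8 and 16.8 and 10.1 for Irf9, and 8.29 for Irf5 in WT, a change made by the shorter lengths. The cause of the other changes was not tested. Depth limits Irf4 in WT, with 13 to 86 reads a library, and Ifng did not pass the filter on low counts.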

Other observations

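Ifne lies on chromosome 4 near Cdkn2a and Cdkn2b, cell cycle inhibitor genes; these neighbours were chosen after their values were seen. Cdkn2a, 394 kb away, had 2.26 ± 2.33 CPM in AHRKO and 101 ± 13.2 CPM in WT (SD, n = 6 each; log2 fold change -5.47, edgeR adjusted p = 5.57e-05). Cdkn2b stood at -3.06 (adjusted p = 0.000433) and Dmrta1 at -2.61 (adjusted p = 0.00633). Mtap, which lies between Ifne and Cdkn2a, had 292 ± 102 CPM in AHRKO and 302 ± 50.8 CPM in WT (adjusted p = 0.912). On the other side of Ifne, Klhl9 (-0.31, adjusted p = 0.0116) and Focad (-0.58, adjusted p = 0.00984) were called lower. Mllt3 (-0.29) and Hacd4 (0.54), on that side too, were not called. The ratio of Irf8 to Irf4 per length ranged from 4.24 to 13.8 in AHRKO libraries and from 7.45 to 25.6 in WT libraries, with overlap.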
